A study of Mus musculus with 46 samples.

Results

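H3K27ac, an acetylation mark carried by active promoters and enhancers, was compared between dividing microglia of 2 settings. The first was 4 weeks of cuprizone diet, which kills oligodendrocytes and strips myelin. The second was the regrowth of microglia after their depletion with PLX5622, an inhibitor of the CSF1 receptor on which microglia depend. The regions were those called in the 4 deposited lists of these cells, 2 per group, merged wherever they overlapped. The union held 35589 regions, of 40726 in the union of all 12 H3K27ac lists of the series. The series as a whole held 46 samples and asked what dividing microglia of unlike origin have in common in gene regulation and where they part.

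All H3K27ac libraries came from male wild-type C57BL/6 mice. Cells were stained for CD11b, CD45 and CD44, fixed, stained with an antibody to Ki67, a protein of cycling cells, and sorted. Cuprizone mice were 90 days old at sacrifice. Repopulating mice were also 90 days old; PLX5622 diet began at day 70, lasted 17 days and was followed by 3 days of recovery. Side comparisons used Ki67-negative cells of cuprizone mice of the same age and diet, untreated adult cells labelled Ki67-negative at 60 and 65 days, and cells of both Ki67 states at postnatal day 8 (PND8). Each of these groups had 2 libraries. RNA came from other mice: repopulating Ki67-positive cells of a Ki67-rfp reporter line at 75 days (PLX5622 from day 55 for 17 days, then 3 days of recovery) and adult wild-type cells at 90 days. No cuprizone RNA was analysed here, and no untreated H3K27ac group was matched to the cuprizone mice in age. Nothing in the labels says whether the 2 H3K27ac libraries of a group came from separate animals, so p-values measure only the spread between these libraries.

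Microglia are macrophages of the brain that clear debris. When myelin is lost they take up its cholesterol, which they cannot break down and instead esterify or export. Sterol excess activates the nuclear receptor LXR, which switches on efflux genes. Sterol shortage activates SREBP2, a membrane-bound transcription factor that switches on cholesterol synthesis and uptake. A dividing cell also needs sterols for new membranes. Microglia near damage are known for a gene programme called disease-associated, with Apoe, Cst7 and Cd63 among its members.

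Promoters that hold the motifs named here, among genes that passed the test, are shown first. Windows of 250 bases before to 50 bases after the start site came from RefSeq (GRCm38.p6); 7387 of 9317 genes with a tested promoter region were matched, and Abcg1 was not. Motifs were searched on both strands, overlapping matches included. Capitals mark the motif of each set, and positions count bases from the start site. The first set is of cholesterol synthesis genes with more H3K27ac in repopulating cells. Capitals mark the sterol response element TCACNCCAC, bound by SREBP, and the CCAAT box (CCAAT), bound by NF-Y. Srebf2, the gene of SREBP2, lies at chr15:82147019-82147318 on the plus strand, with a CCAAT box at -135. Cyp51, the sterol demethylase, lies at chr5:4104648-4104947 on the minus strand, with a CCAAT box at -29. Hmgcs1, which makes HMG-CoA, lies at chr13:119690101-119690400 on the plus strand, with a sterol response element at -137 and 4 CCAAT boxes. Its difference did not hold per kb of called length.
Srebf2: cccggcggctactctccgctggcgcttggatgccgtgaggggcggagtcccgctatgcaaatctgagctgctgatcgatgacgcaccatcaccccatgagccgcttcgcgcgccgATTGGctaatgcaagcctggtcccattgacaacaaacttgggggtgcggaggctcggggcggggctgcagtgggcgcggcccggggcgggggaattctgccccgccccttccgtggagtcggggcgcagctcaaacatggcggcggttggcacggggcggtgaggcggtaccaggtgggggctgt
Cyp51: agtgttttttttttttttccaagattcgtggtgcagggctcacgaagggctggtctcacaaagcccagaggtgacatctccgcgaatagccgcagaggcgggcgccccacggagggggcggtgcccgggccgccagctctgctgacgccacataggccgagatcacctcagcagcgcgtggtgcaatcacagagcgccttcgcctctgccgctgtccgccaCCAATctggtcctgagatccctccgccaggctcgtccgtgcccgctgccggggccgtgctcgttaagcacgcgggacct
Hmgcs1: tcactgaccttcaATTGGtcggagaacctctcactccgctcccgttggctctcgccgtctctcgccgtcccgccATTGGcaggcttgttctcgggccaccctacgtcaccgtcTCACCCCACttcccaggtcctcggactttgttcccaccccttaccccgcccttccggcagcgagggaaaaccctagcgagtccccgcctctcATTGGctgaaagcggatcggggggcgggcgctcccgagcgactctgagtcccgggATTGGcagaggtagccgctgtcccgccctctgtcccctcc

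The second set stands for promoters with more H3K27ac in cuprizone cells. Abca1, the cholesterol exporter, lies at chr4:53159846-53160145 on the minus strand; capitals mark a DR4 element (GGTNA and again GGTNA, with 5 bases of any kind between), bound by LXR, at -67. Isg15, a ubiquitin-like protein, lies at chr4:156200769-156201068 on the minus strand. Oas1a, an antiviral enzyme, lies at chr5:120907476-120907775 on the minus strand, and Slfn5, a Schlafen protein, at chr11:82951852-82952151 on the plus strand. In these 3, capitals mark interferon-stimulated response elements (GAAA, 2 bases of any kind, GAAA), bound by IRF factors. Isg15 has 3 overlapping copies from -78, Oas1a has 2 from -20, and Slfn5 has 1 at -155. The calls at these 3 each depended on the setting. Among interferon promoters, Oasl2 and Rtp4 kept their call in every alternative that gave a value. Oasl2 has no such element in its window and Rtp4 was not matched.
Abca1: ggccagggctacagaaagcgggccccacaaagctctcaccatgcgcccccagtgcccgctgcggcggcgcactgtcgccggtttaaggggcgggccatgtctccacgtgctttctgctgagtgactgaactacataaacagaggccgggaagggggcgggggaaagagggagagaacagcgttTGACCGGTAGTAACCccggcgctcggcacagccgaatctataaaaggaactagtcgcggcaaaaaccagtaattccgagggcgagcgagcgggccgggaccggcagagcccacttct
Isg15: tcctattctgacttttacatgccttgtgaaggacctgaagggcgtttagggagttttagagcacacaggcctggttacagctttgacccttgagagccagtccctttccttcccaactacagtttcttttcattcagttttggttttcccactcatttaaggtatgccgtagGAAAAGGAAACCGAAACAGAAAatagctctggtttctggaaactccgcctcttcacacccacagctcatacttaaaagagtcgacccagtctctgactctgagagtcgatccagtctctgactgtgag
Oas1a: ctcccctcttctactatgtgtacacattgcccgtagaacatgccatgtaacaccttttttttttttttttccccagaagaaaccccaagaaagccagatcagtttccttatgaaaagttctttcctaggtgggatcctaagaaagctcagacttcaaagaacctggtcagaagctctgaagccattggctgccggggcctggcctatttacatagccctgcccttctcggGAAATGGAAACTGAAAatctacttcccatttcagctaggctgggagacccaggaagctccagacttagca
Slfn5: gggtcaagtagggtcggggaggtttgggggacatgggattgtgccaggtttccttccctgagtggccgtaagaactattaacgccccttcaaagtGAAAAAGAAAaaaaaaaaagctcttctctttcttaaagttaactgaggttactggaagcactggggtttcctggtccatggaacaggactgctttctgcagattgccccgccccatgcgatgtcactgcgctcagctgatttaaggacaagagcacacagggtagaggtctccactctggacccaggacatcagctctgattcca

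The third set shows a cell cycle promoter of each phase with more H3K27ac in repopulating cells, with CCAAT boxes in capitals. Ube2c, a mitotic ubiquitin-conjugating enzyme, lies at chr2:164769679-164769978 on the plus strand and has 6 boxes. Rrm2, which makes deoxynucleotides for DNA synthesis, lies at chr12:24708004-24708303 on the plus strand and has 1 box at -50.
Ube2c: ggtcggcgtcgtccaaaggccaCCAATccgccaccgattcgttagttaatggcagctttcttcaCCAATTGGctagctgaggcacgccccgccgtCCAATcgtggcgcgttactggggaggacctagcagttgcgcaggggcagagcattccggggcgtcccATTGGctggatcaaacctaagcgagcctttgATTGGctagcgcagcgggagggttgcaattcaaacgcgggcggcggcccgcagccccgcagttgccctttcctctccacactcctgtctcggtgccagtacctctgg
Rrm2: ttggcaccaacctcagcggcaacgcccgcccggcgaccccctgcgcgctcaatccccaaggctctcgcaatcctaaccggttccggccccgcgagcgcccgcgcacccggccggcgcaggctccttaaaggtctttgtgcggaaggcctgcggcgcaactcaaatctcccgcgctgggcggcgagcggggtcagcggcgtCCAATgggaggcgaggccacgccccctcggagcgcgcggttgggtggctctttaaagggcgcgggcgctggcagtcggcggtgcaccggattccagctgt

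These motifs were not equally common. The interferon-stimulated element was in 3.1% of all matched promoters, in 13 of 24 (54.2%) tested interferon promoters and in 4 of the 6 matched among those that passed the test. It was in 6.6% of matched promoters higher in cuprizone and in 4.9% of those higher in repopulation. The CCAAT box was in 39.0% of all matched promoters, in 10 of 12 (83.3%) of the sterol list, in 23 of 28 (82.1%) of the G2/M list and in 18 of 25 (72.0%) of the S phase list. It was in 50.7% of the 142 matched promoters higher in repopulation and in 35.7% of the 182 higher in cuprizone. The E2F motif (TTTNGCGC or TTTCCCGC) was in 5.1% of all promoters and in 9 of 25 (36.0%) of the S phase list, and in 2.7% of promoters higher in cuprizone and 7.0% of those higher in repopulation. The AP-1 motif (TGANTCA) was in 4.2% of all promoters, in 9.3% of those higher in cuprizone and in 7.7% of those higher in repopulation. The sterol response element was in 0.9% of all promoters and in 1 of 12 of the sterol list. The DR4 element was in 0.4% of all promoters and in 1 of 13 of the efflux list: of the 4 matched that were higher in cuprizone, Abca1 held it and Apoe, Plin2 and Soat1 did not. The CLEAR element of lysosomal genes (TCACGTGA) was in 2.3% of all promoters, 3.3% of those higher in cuprizone and 0.7% of those higher in repopulation. Such a match describes the letters of the window and shows no binding.

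The 4 libraries held 15233543 to 21527089 tags, of which 49.86% to 65.3% lay in called peaks. Cuprizone replicate 1 had the fewest tags and covered 24423 regions of the union; the others covered 26514 to 29823. Values are the authors' normalized tag counts, scaled to 10000000 tags per library and summed within a region. As deposited, both replicate 2 libraries ran above both replicate 1 libraries, with median levels of 1.139 and 1.111 times the mean of the 4 against 0.88 and 0.897. Each library was therefore centred on its median before differences were taken, and log2 differences below are cuprizone minus repopulation after centring. Both replicate 2 libraries also share a numeric code in their file headers that the labels do not explain; the replicate 1 codes differ. Differences within that code (cuprizone replicate 2 minus repopulating replicate 2) are given for the main lists. Centred levels correlated across regions at 0.951 and 0.95 within the groups and at 0.863 to 0.883 between them, a description in which regions are not independent.

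The cells carried the marks of microglia in both settings. At the promoter of Csf1r, the CSF1 receptor, the cuprizone libraries had 1505.9 and 1620.0 tags and the repopulating libraries 1521.3 and 1670.9 (log2 difference -0.03, adjusted p = 0.931 by limma). P2ry12, a purinergic receptor of resting microglia, had 2000.2 and 2221.1 against 1788.3 and 2267.4 tags (0.06, adjusted p = 0.878). The groups overlapped at both genes. The promoters of Tmem119 (-0.21, adjusted p = 0.41) and Sall1 (0.30, adjusted p = 0.291), a surface marker and a lineage factor of microglia, did not pass the test either. Other regions near Sall1 did: of 17 tested with it as nearest start site, 5 were higher in cuprizone (0.62 to 0.99) and 0 in repopulation. Over all tested regions, 7.84% were higher in cuprizone. Of the markers of other cells, 0 of 10 neuronal, 1 of 8 astrocyte, 1 of 14 lymphocyte, 3 of 9 endothelial, 4 of 12 oligodendrocyte, 4 of 18 monocyte or neutrophil and 6 of 13 border macrophage genes had a promoter region in any of the 4 lists. Those without one included Ly6c2, Ccr2, S100a8 and S100a9 of monocytes and neutrophils, Lyve1 and Cd163 of border macrophages and Cldn5 of endothelium. Among oligodendrocyte genes, Mbp (0.00) and Cnp (-0.09) were tested and did not pass. The 4 oligodendrocyte promoters summed to 377.5 and 912.3 tags in cuprizone and 419.6 and 387.4 in repopulation. In sorted bulk cells, fewer cells of a kind and less signal per cell cannot be told apart.

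Most regions were shared. All 4 lists called 20227 regions (56.83%), and only these were tested, since a region left uncalled in a library has no value there. In limma fits across them with Benjamini-Hochberg adjustment at 0.05, 1586 (7.84%) were higher in cuprizone and 955 (4.72%) higher in repopulation. At an unadjusted p under 0.05, limma gave 2956 and 2350. The groups did not overlap at 11277 of the tested regions (55.8%). The median difference was 1.07 among regions higher in cuprizone and -1.15 among those higher in repopulation, and 1.01 and -1.12 within the shared code. The 2 libraries of that code took part in the calls, so within-code values are no separate check. All 1586 and 955 regions kept their sign there, against 16427 of all tested. The groups also did not overlap at any of them, so at a called gene that adds nothing to the call. Without centring the counts were 827 and 454. Scaling by summed tags gave 1205 and 1058, so that 53.2% of calls were higher in cuprizone in place of 62.4%. Leaving out cuprizone replicate 1 gave 996 and 916, and leaving out repopulating replicate 2 gave 1488 and 614.

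**Figure D1:**
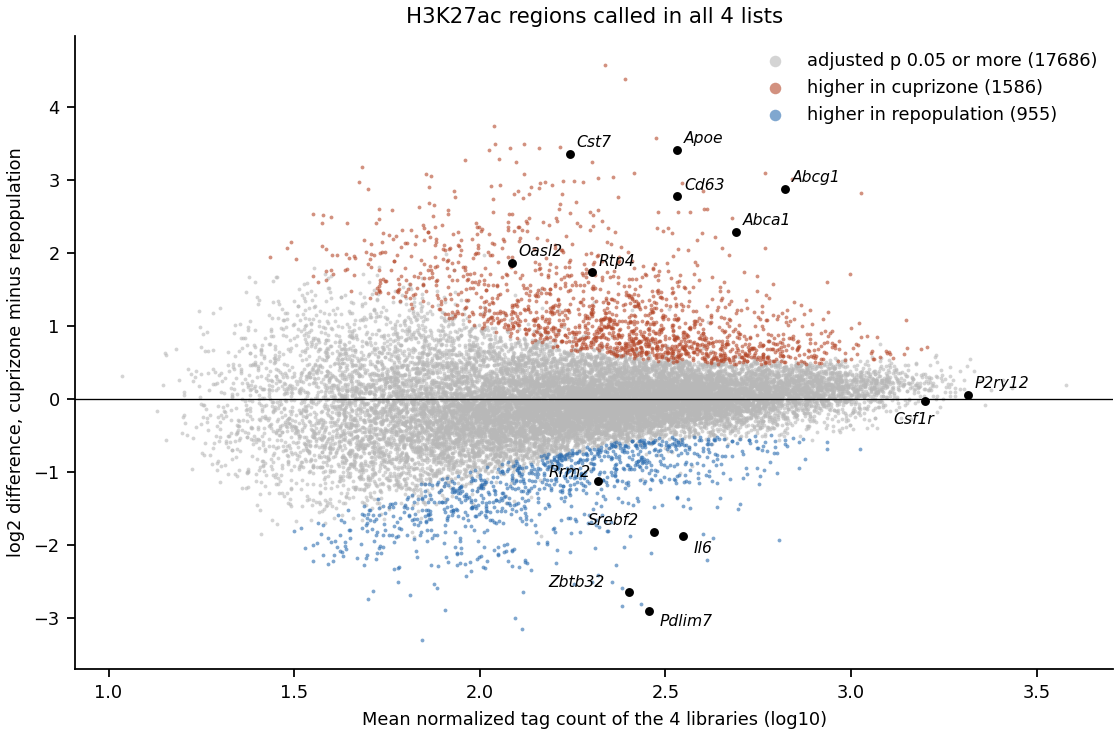
Each point is 1 of the 20227 regions called in all 4 lists: the log2 difference (cuprizone minus repopulation, after centring) against the log10 mean normalized tag count. The 1586 red points lie above 0, the 955 blue points below, and the named promoters include Csf1r and P2ry12 near 0.

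The regions that differed lay mostly away from promoters. A promoter here is a region within 1000 bp of a gene's start site. Of tested regions 40.9% were promoters, against 15.3% of those higher in cuprizone and 18.6% of those higher in repopulation. Regions also differed in called length: those higher in cuprizone had medians of 2.43 kb called in cuprizone and 1.82 kb in repopulation, and those higher in repopulation 1.51 and 2.23 kb. Per kb of called length, the medians shrank to 0.59 and -0.62, and 1565 of 1586 and 932 of 955 kept their sign. Of all 20227 tested regions, 16572 did. Only 1455 of the 2541 calls passed the threshold again per kb. Another 1038 regions (2.92% of the union) were called in both cuprizone lists and neither repopulating list, and 1240 (3.48%) the reverse. Those were weak, with medians of 40.3 and 27.2 tags, and 3.8% and 5.4% of them were promoters.

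Promoters of disease-associated genes that passed the test were higher in cuprizone cells, with the exception of Cybb. Of 40 listed genes, 36 had a promoter region, 30 were tested, and 18 were higher in cuprizone and 1 in repopulation; over all 9317 promoters tested the shares were 2.61% (243) and 2.08% (194). The count of 18 was 14 without cuprizone replicate 1 and without repopulating replicate 2, 11 without centring, 11 with all 12 libraries in the fit and 9 without a trend. The list's median difference was 0.74, also 0.74 within the shared code, against -0.06 and 0.03 over all promoters. At Cst7, a cysteine protease inhibitor (chr2:150569175-150571653), cuprizone libraries had 217.9 and 422.9 tags and repopulating libraries 33.5 and 24.2. Every cuprizone value was several times every repopulating one, with a log2 difference of 3.36 (SE 0.34, adjusted p = 0.000149). Cd63, a tetraspanin of lysosomes and exosomes (chr10:128908930-128911918), had 523.8 and 668.1 against 77.7 and 92.9 tags, a difference of 2.78 (SE 0.18, adjusted p = 1.01e-05).

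The list also held growth factor genes. Csf1, a ligand of the receptor that PLX5622 blocks, had 460.8 and 601.7 tags in cuprizone and 191.8 and 168.2 in repopulation (1.54, SE 0.19, adjusted p = 0.000362). Its groups did not overlap. Igf1, the insulin-like growth factor, had 467.4 and 460.9 tags in cuprizone and was called in neither repopulating list, so it had no test. The same held for Lgals3, the lectin galectin-3, with 104.4 and 121.8 tags. The chemokine gene Ccl3 (1.01), the protease gene Ctsd (1.04) and Lyz2, lysozyme (1.58), were also higher in cuprizone. Smaller differences were those of Clec7a, a pattern recognition receptor (0.67, and 0.12 per kb), Axl, a receptor for dying cells (0.79), and Trem2, a lipid sensor (0.54). These 3, and Lyz2 without cuprizone replicate 1, lost the call when a single library was left out.

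Other members did not follow. Itgax, the integrin CD11c, had 322.3 and 407.1 tags in cuprizone and 336.4 and 472.0 in repopulation (-0.14, adjusted p = 0.602). Spp1, osteopontin, was faint at 24.3 and 29.0 tags in cuprizone and 32.3 in repopulating replicate 1, and was not called in replicate 2. Cybb, the NADPH oxidase subunit gp91phox, passed in the other direction. It had 36.1 and 18.5 tags in cuprizone and 79.5 and 195.1 in repopulation (-2.23, SE 0.49, adjusted p = 0.0118). Of the 18 promoters higher in cuprizone, 10 kept the call without each library in turn. Of these, 7 kept it in every alternative run that gave a value: Apoe, Cst7, Csf1, Cd63, Ctsd, Plin2 and Serpine2.

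**Figure D2:**
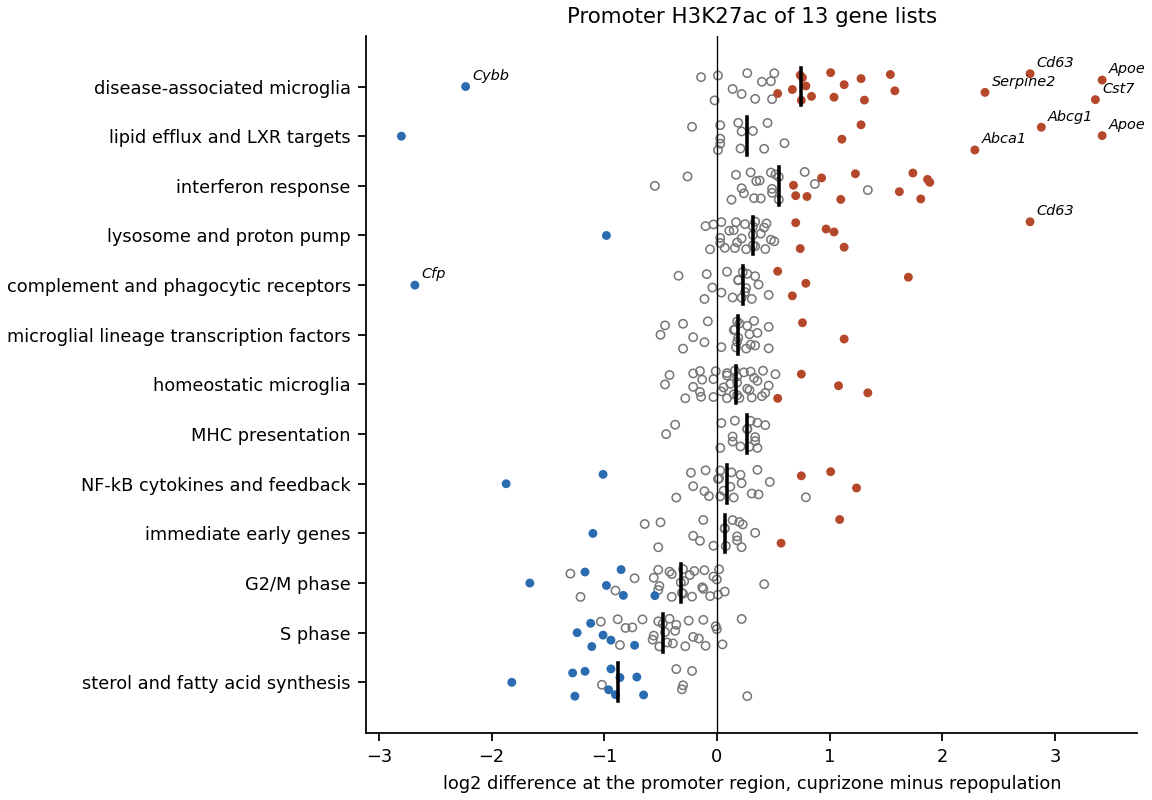
Each point is the promoter region of a listed gene that was called in all 4 lists, placed by its log2 difference (cuprizone minus repopulation); filled red and blue points passed an adjusted p of 0.05, open points did not, and black bars are medians. Of the 13 lists drawn, which leave out the markers of other cells, disease-associated microglia has the highest median (0.74) and sterol synthesis the lowest (-0.88).

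Genes of cholesterol handling split by role. Those that passed among the efflux genes were higher in cuprizone. ABCG1, with ABCA1, exports cholesterol to lipoproteins: at Abcg1 (chr17:31057290-31061354) cuprizone libraries had 1090.4 and 1251.9 tags and repopulating libraries 135.0 and 184.5. The difference was 2.88 (SE 0.15, adjusted p = 5.63e-06). Abca1 (chr4:53157711-53160196), whose sequence stands above, had 808.7 and 817.4 against 145.8 and 185.3 tags (2.29, SE 0.17, adjusted p = 1.88e-05). The lipoprotein gene Apoe (chr7:19698091-19702655) had 562.6 and 671.3 against 89.6 and 35.3 tags, a difference of 3.42 (SE 0.39, adjusted p = 0.00026). Within the shared code it was 4.18. The cuprizone libraries lay above the repopulating ones at all 3 genes.

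Storage genes followed with smaller differences. Soat1 makes cholesterol esters, and had 565.9 and 678.7 against 263.5 and 310.8 tags (1.11, adjusted p = 0.000633). Plin2, which coats lipid droplets, had 825.2 and 801.5 against 282.0 and 395.8 (1.28, adjusted p = 0.000632). Apoc1 and Apoc2, apolipoprotein genes beside Apoe, were called in both cuprizone lists and neither repopulating list, with 349.2 and 608.0 tags and 194.3 and 262.6 tags. In all, 28 genes were listed as lipid efflux or LXR targets, 18 were tested, and 5 were higher in cuprizone and 1 in repopulation (median 0.27). The 5 kept their call in every alternative that gave a value. Apoe and Plin2 are also counted in the disease-associated list.

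The synthesis list differed in the other direction. Of 26 genes of sterol and fatty acid synthesis, 16 were tested, 10 were higher in repopulation and 0 in cuprizone, where the same limma fit also gave 0 at an unadjusted p under 0.05. The median was -0.88, -0.65 within the shared code and -0.36 per kb.

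Srebf2 (chr15:82145428-82148426) had 83.4 and 192.0 tags in cuprizone and 384.8 and 519.8 in repopulation (-1.82, SE 0.24, adjusted p = 0.000625). Cyp51 had 82.1 and 150.3 against 255.1 and 286.6 tags (-1.28, adjusted p = 0.00343). At both genes the repopulating libraries lay above the cuprizone libraries, and cuprizone replicate 1 was the lowest. The kinase Pmvk (-1.26), the desaturase Fads1 (-1.17), the SREBP retention factor Insig1 (-0.86), Idi1 (-0.71) and Fdps (-0.65), both of the isoprenoid steps, also passed. Hmgcs1 had 84.7 and 122.9 against 177.5 and 222.0 tags (-0.96), but 0.04 per kb; Fdft1, squalene synthase (-0.94), was 0.32 per kb. At those 2 promoters the repopulating libraries had a longer called stretch and no higher density.

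The untested members of the synthesis list differed in their calls. Fads2, a desaturase (154.2 and 123.1 tags), was called in both repopulating lists and neither cuprizone list. Sqle, Lss, Msmo1, Hsd17b7, Sc5d, Elovl6 and Stard4 were called in both repopulating lists and missed only in cuprizone replicate 1, the library with the fewest tags. Acaca had no region. Srebf2, Cyp51 and Pmvk kept their call in every alternative that gave a value. The run on peaks of at least 8 times the input gave none at these genes. Of the 10 promoters that passed, 4 kept the call without each library in turn. The list's count was 4 without centring, 5 per kb and 6 without repopulating replicate 2.

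The interferon promoters that passed were all higher in cuprizone. Of 40 genes, 31 were tested, 11 were higher in cuprizone and 0 in repopulation; by limma 1 was at an unadjusted p under 0.05 in that direction, and 1 passed without cuprizone replicate 1. The median was 0.55, 0.70 within the shared code and 0.41 per kb. Oasl2, an antiviral OAS-like protein (chr5:114896490-114898776), had 137.9 and 247.3 tags in cuprizone and 38.8 and 63.6 in repopulation (1.87, SE 0.31, adjusted p = 0.0022). Rtp4, an interferon-induced chaperone (chr16:23609022-23612057), had 223.8 and 402.4 against 81.9 and 96.2 (1.74, SE 0.23, adjusted p = 0.000615). Slfn5 had 86.0 and 100.7 against 26.3 and 22.3 tags (1.89, SE 0.41, adjusted p = 0.0107), and Isg15 502.8 and 602.2 against 239.6 and 414.4 (0.80, SE 0.18, adjusted p = 0.0118). Cuprizone libraries lay above repopulating ones at all 4 genes. Slfn5 lost the call without cuprizone replicate 1 and Isg15 without repopulating replicate 1.

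The antiviral genes Oas1a (1.81), Usp18 (1.62), Oasl1 (1.23), Zbp1 (1.10), Mx1 (0.93), Trim30a (0.70) and Parp14 (0.68) passed as well. The regulator Irf7 had a difference of 0.55 (adjusted p = 0.107). Oas1a lost the call without cuprizone replicate 2 and without repopulating replicate 2. Ifit3, a classic target, had 0.87 (adjusted p = 0.0923). Cxcl10, an interferon-induced chemokine, went against the list, with 26.4 tags in cuprizone replicate 2, no call in replicate 1, and 167.3 and 135.6 tags in repopulation. Oasl2 and Rtp4 kept the call in every alternative that gave a value, and 6 of the 11 kept it without each library in turn. The count was 7 without centring and 3 with all 12 libraries in the fit.

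The cell cycle promoters that passed were all higher in repopulation; both groups had been sorted for Ki67. In the S phase list, 33 of 40 genes were tested, 6 were higher in repopulation and 0 in cuprizone, with a median of -0.48 (-0.40 within the shared code, -0.30 per kb). In the G2/M list, 35 of 46 were tested, 6 were higher in repopulation and 0 in cuprizone, with a median of -0.32 (-0.21 and -0.18). Rrm2 (chr12:24707342-24710891) had 112.9 and 150.3 tags in cuprizone and 262.9 and 306.1 in repopulation (-1.12, SE 0.19, adjusted p = 0.00274). Ube2c (chr2:164769096-164771229) had 34.1 and 73.3 against 156.0 and 163.5 (-1.66, SE 0.33, adjusted p = 0.0066). At an unadjusted p under 0.05, limma gave 15 S phase and 14 G2/M promoters higher in repopulation and 0 in cuprizone in either list. Over all 20227 tested regions, promoters and others together, 2350 were higher in repopulation and 2956 in cuprizone at that level. The groups were apart at Rrm2 and Ube2c, and these 2 kept their call in every alternative that gave a value.

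Top2a, the topoisomerase of mitosis, had 44.6 and 109.2 against 141.6 and 175.1 tags (-1.17, SE 0.32, adjusted p = 0.0351). It lost the call without cuprizone replicate 1 and without repopulating replicate 2. Cdc20, the mitotic exit activator (-0.85), the cyclin gene Ccna2 (-0.98), the checkpoint kinase gene Bub1b (-0.55) and Hmmr (-0.83) passed in G2/M. The replication genes Rfc2 (-1.24), Mcm6 (-1.11), Rrm1 (-1.01), Dscc1 (-0.94) and E2f8 (-0.73) passed in S phase. Of the 6 that passed in each list, 2 in G2/M and 1 in S phase kept the call without each library in turn. Bub1b lost it without any 1 of the 4 libraries. Mki67, the gene of the sorted protein, had 142.4 and 260.0 against 246.8 and 307.5 tags, an overlap of the groups (-0.52, adjusted p = 0.119). Mcm5 (-0.81, adjusted p = 0.0574) and Pcna (-0.51, adjusted p = 0.0614) also missed the threshold. The S phase count was 1 without cuprizone replicate 1, 2 without repopulating replicate 2 and 2 without centring; the G2/M count was 1 without centring and 11 without cuprizone replicate 2.

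The remaining lists are given in brief. All 40 homeostatic promoters were tested and 4 were higher in cuprizone (median 0.17): the Fc receptor-like gene Fcrls (1.08), Crybb1 (1.34), the leukotriene synthase Ltc4s (0.75) and Trem2. Of 33 tested lysosomal promoters, 6 were higher in cuprizone, among them Mitf, a regulator of lysosomal genes (1.13), and Lamp1, a lysosomal membrane protein (0.97). Ctsd and Cd63, already counted in the disease-associated list, were among the 6 too. Of the 6, only these 2 kept the call in every alternative that gave a value. Psap, the saposin precursor, was higher in repopulation by summed tags (-0.98), but was 0.04 per kb. Of 17 tested promoters of antigen presentation 0 passed either way by limma, with 2 higher in cuprizone and 0 in repopulation at an unadjusted p under 0.05, and the median was 0.27. Among 26 tested NF-kB genes, 3 were higher in cuprizone and 2 in repopulation. Of 20 immediate early genes, Atf3 (1.09) and Egr2 (0.57) were higher in cuprizone and Zfp36 (-1.10, and 0.25 per kb) in repopulation. Microglial lineage factors had 2 of 26 higher in cuprizone and a median of 0.19.

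Of 23 tested promoters of complement and phagocytic receptors, 4 were higher in cuprizone (17.4%) and 1, Cfp, in repopulation (4.35%). Single genes of the NF-kB and complement lists stood out in either direction. Il6, the cytokine interleukin-6 (chr5:30011053-30015075), had 127.4 and 172.4 tags in cuprizone and 438.0 and 668.9 in repopulation (-1.87, SE 0.17, adjusted p = 8.03e-05). Cfp, properdin of the alternative complement pathway (chrX:20929805-20932380), had 14.4 and 19.5 against 100.4 and 125.4 (-2.68, SE 0.41, adjusted p = 0.00147). Both repopulating libraries were well above the cuprizone ones at each, and both calls held in every alternative that gave a value. Gas6, the ligand of Axl, had 181.8 and 342.2 against 52.6 and 109.6 tags (1.70, adjusted p = 0.00313). Among markers of other cells, the 3 tested monocyte or neutrophil genes were Itga4 (-1.38) and Itgal (-1.19), integrins of blood leukocytes, both higher in repopulation, and the cytokine receptor gene Csf3r (0.28, adjusted p = 0.308). Of 2 tested border macrophage genes Siglec1 (0.62) was higher in cuprizone, and so was the single tested endothelial gene, the VEGF receptor Kdr (1.16). Siglec1 lost the call without any 1 of the 4 libraries and Itgal without any of 3. Itga4 and Kdr kept it without each library in turn. Folr2 of border macrophages (26.9 and 32.2 tags) and Flt1 of endothelium (30.9 and 110.2) were called in both cuprizone lists and neither repopulating list. The 4 monocyte or neutrophil promoters with a region summed to 894.7 and 948.6 tags in cuprizone and 822.7 and 1060.5 in repopulation. The 6 of border macrophages summed to 1070.7 and 1188.6 against 781.6 and 911.0, and the 3 of endothelium to 321.0 and 490.9 against 143.4 and 142.1. Their part in the other differences was not tested.

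**Figure D3:**
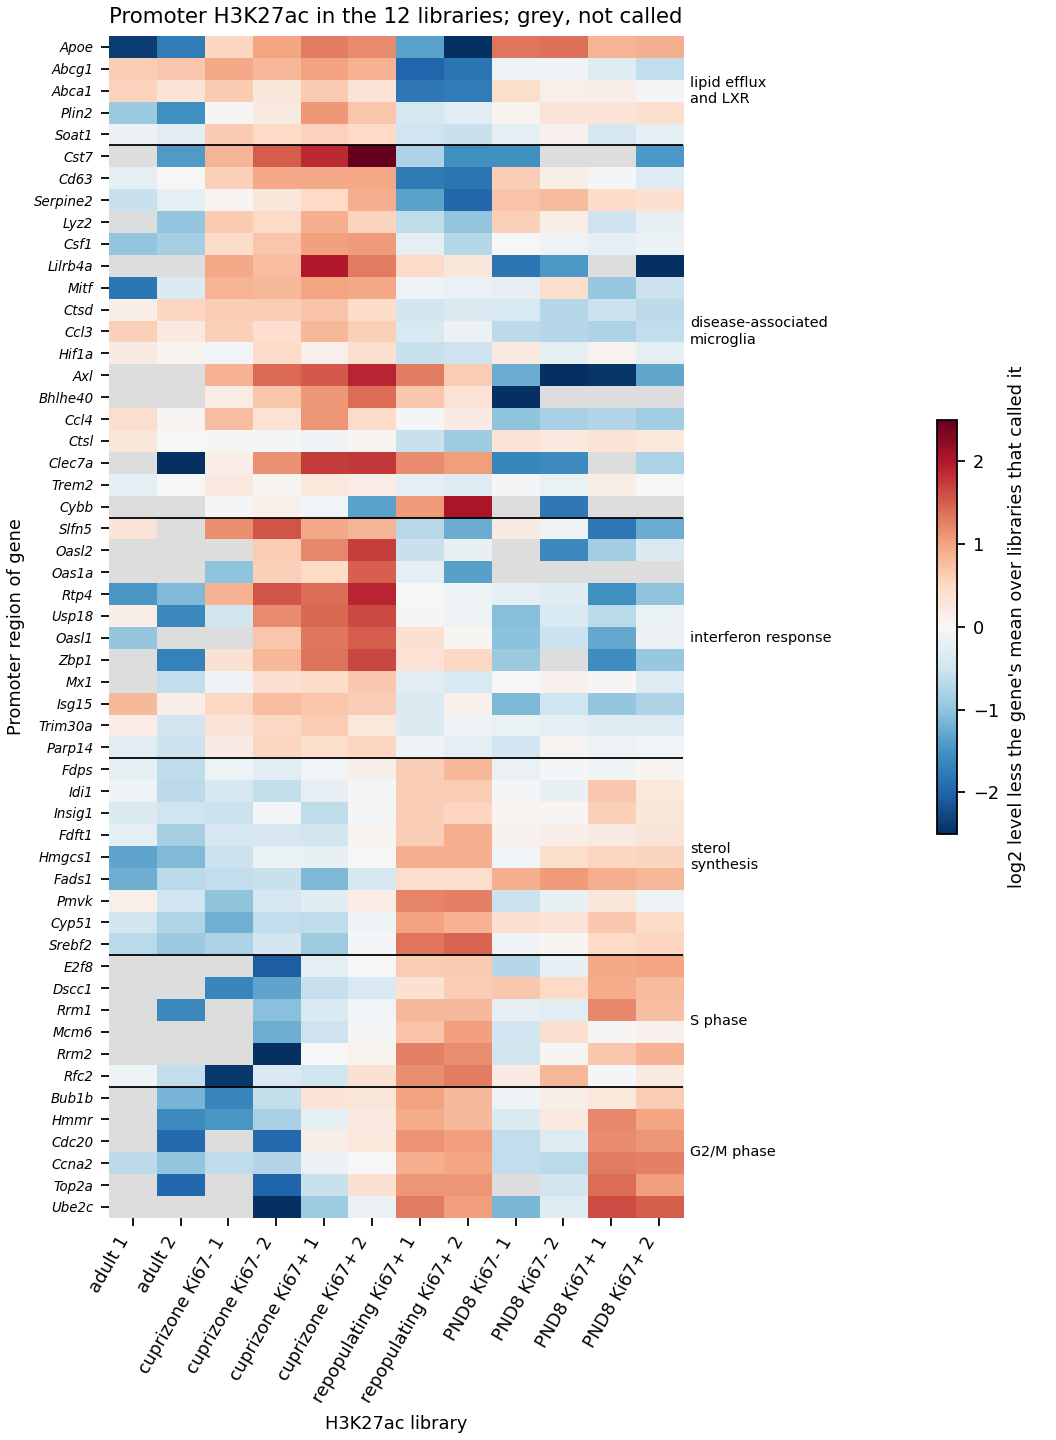
Each row is the promoter region of a gene that passed in its list and is named here, and each column a library; colour is the log2 centred level less the gene's mean over the libraries that called it, and grey means not called. Repopulating libraries are the lowest of the row at Abcg1 and Abca1, and the highest at Srebf2.

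Outside the fixed lists, the largest differences were mostly distal. In cuprizone the largest was 66.9 kb from Igfbp5, an IGF-binding protein gene (chr1:72941809-72946196), with 333.5 and 503.1 against 23.9 and 10.7 tags (4.58, SE 0.42, adjusted p = 8.02e-05). The second lay inside Nceh1, a cholesteryl ester hydrolase gene (chr3:27191169-27194498), with 450.3 and 491.5 against 15.5 and 29.3 (4.39, SE 0.30, adjusted p = 1.49e-05). Others lay nearest to Trpc4 (3.74), Rtp1 (3.58), Arhgap24 (3.50), Fam20c (3.49, promoter), Amz2 (3.46), Dnttip2 (3.45), the lysosomal mannosidase gene Manba (3.44) and Ptchd1 (3.41, promoter). In repopulation the largest lay nearest to Crk (chr11:75668267-75670776), inside Myo1c, with 12.5 and 11.6 against 121.3 and 133.3 tags (-3.30, SE 0.44, adjusted p = 0.000636). Promoters among the largest there were those of Pdlim7, a PDZ and LIM domain protein of the actin cytoskeleton (-2.90), Cfp and Zbtb32, a zinc finger repressor (-2.64). At Pdlim7 the tags were 40.7 and 106.5 against 475.0 and 519.3. The rest lay nearest to Pex5 (-3.15), Hook3 (-2.99), Crim1 (-2.89), Dnajb12 (-2.83), Grm7 (-2.74), Slc25a12 (-2.64) and Tmc3 (-2.63). All of these kept their call in every alternative that gave a value.

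The strongest regions called in 1 group alone included further lipid and signalling genes. In cuprizone these were Apoc1, Igf1, Gramd1b, a carrier of cholesterol to the endoplasmic reticulum (348.6 and 515.7 tags), Ninj1 (322.3 and 497.8), a region 56.8 kb from the Abca1 start (356.5 and 376.5) and 1 inside the integrin gene Itgb2 (309.8 and 384.4). In repopulation they lay in or near Tgfbr1, a receptor for TGF-beta (119.5 and 391.1), Skil, a repressor of TGF-beta signalling (121.3 and 311.2), the promoter of the sialyltransferase St8sia1 (215.7 and 259.7), Armc5 (171.5 and 276.9), Reep3 (182.2 and 261.1) and Idh2 (233.6 and 183.1). The values at Tgfbr1 and Skil differed by over 2 times between the 2 repopulating libraries.

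Several genes had many differing regions. Around Abca1, 18 regions had it as nearest start site and 9 were tested; all 9 were higher in cuprizone, by 1.18 to 3.30. Summed over the locus, cuprizone libraries had 4776.2 and 5071.4 tags and repopulating libraries 853.2 and 953.6. The largest value, 38.7 kb into the gene, was 1205.9 and 1263.0 against 160.1 and 142.6 tags. Dyrk2, a kinase gene (7 of 10 tested), Xylt1, a xylosyltransferase gene (7 of 8), and Smad7, an inhibitor of TGF-beta signalling (8 of 20), followed in cuprizone. Of the called Dyrk2 regions, only those at 159.2 and -171.4 kb from the start kept their call without each library in turn. Of the called Smad7 regions, only that 111.8 kb from the start did so. The Smad7 region 0.4 kb from the start did not pass (-0.11, adjusted p = 0.718 by limma). In repopulation, Bcl6, a transcriptional repressor, had 6 of 9 tested regions higher, by -2.34 to -1.28, and all 6 lay upstream, at -184.3 to -12.9 kb. Its 3 tested regions nearest the start did not pass (-0.06 to -0.45). Mgat4a (6, with 1 other higher in cuprizone), Abcc1 (5 of 5) and Tnfaip8 (5 of 9) followed, and 1 of the Mgat4a regions was 0.09 per kb. Among the Abcc1 regions, only that 116.1 kb from the start kept its call without each library in turn. Il6 had 4 of 7 tested regions higher in repopulation, the promoter among them.

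**Figure D4:**
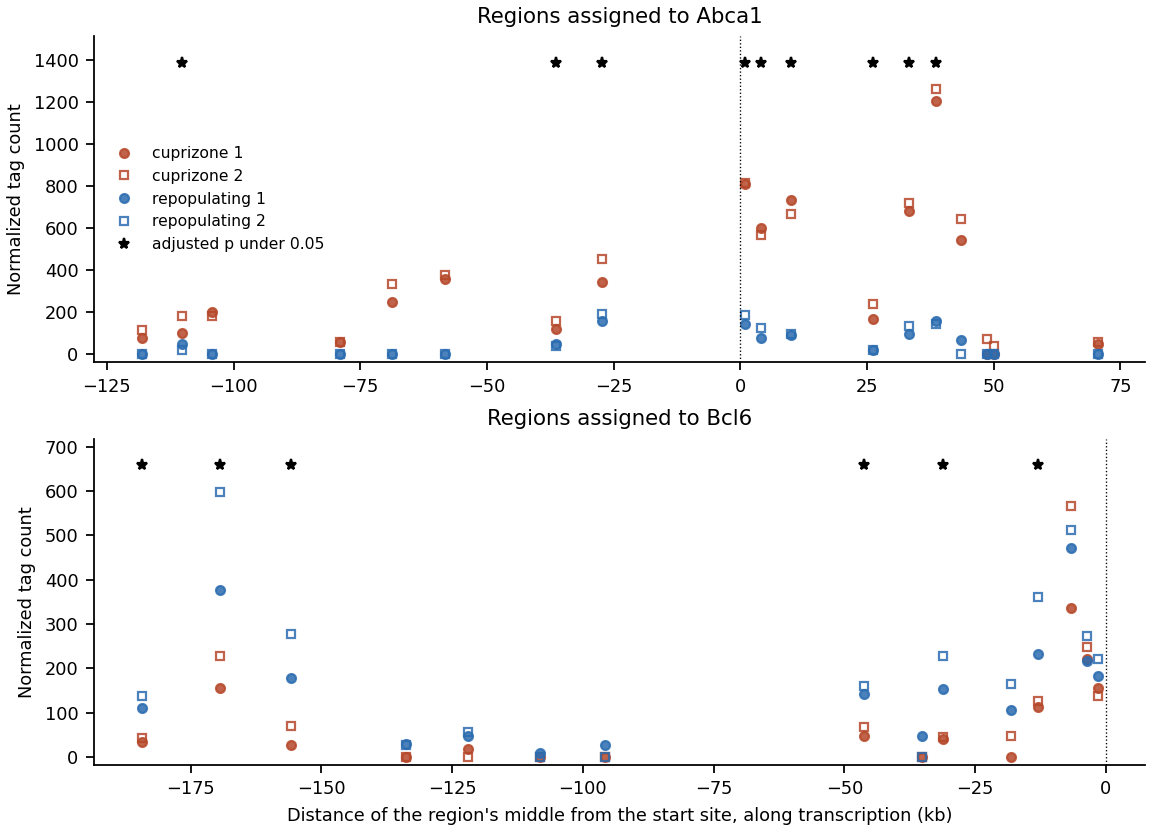
Normalized tag count in each of the 4 libraries for every union region assigned to Abca1 and to Bcl6, against the distance of the region's middle from the start site along transcription (kb); a region not called in a library is drawn at 0, and stars mark an adjusted p under 0.05. Cuprizone values lie above at all 9 tested Abca1 regions, and repopulating values lie above at the 6 starred Bcl6 regions.

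The other lists of the series placed these sets. Regions higher in cuprizone were called in both Ki67-negative cuprizone lists for 97.7%, against 90.9% of all tested regions, and in both adult lists for 76.4% against 78.9%. Regions higher in repopulation were in both Ki67-negative cuprizone lists for 76.4%, in both adult lists for 57.6% and in both Ki67-positive PND8 lists for 87.9%, against 92.9% of all tested. Regions called in both cuprizone lists alone were in both Ki67-negative cuprizone lists for 48.7%, and regions called in both repopulating lists alone for 10.2%, against 63.3% of the whole union. By ATAC-seq, an assay of open chromatin, the set called in repopulation alone overlapped a peak of adult cells for 63.1% and of repopulating Ki67-positive cells for 82.3%, and the set called in cuprizone alone for 53.7% and 66.0%, against 82.4% and 87.6% of the whole union. Each ATAC group had 1 list. The repopulating ATAC cells came from the Ki67-rfp reporter line, at the age and on the PLX5622 schedule of the repopulating RNA mice. The adult ATAC cells were wild-type, at an age that matched no H3K27ac group. H3K4me3, a promoter mark, was called in both adult lists at 54.8% of tested regions, 27.9% of those higher in cuprizone and 29.3% of those higher in repopulation. The H3K4me3 mice were wild-type, also at an age that matched no H3K27ac group.

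**Figure D5:**
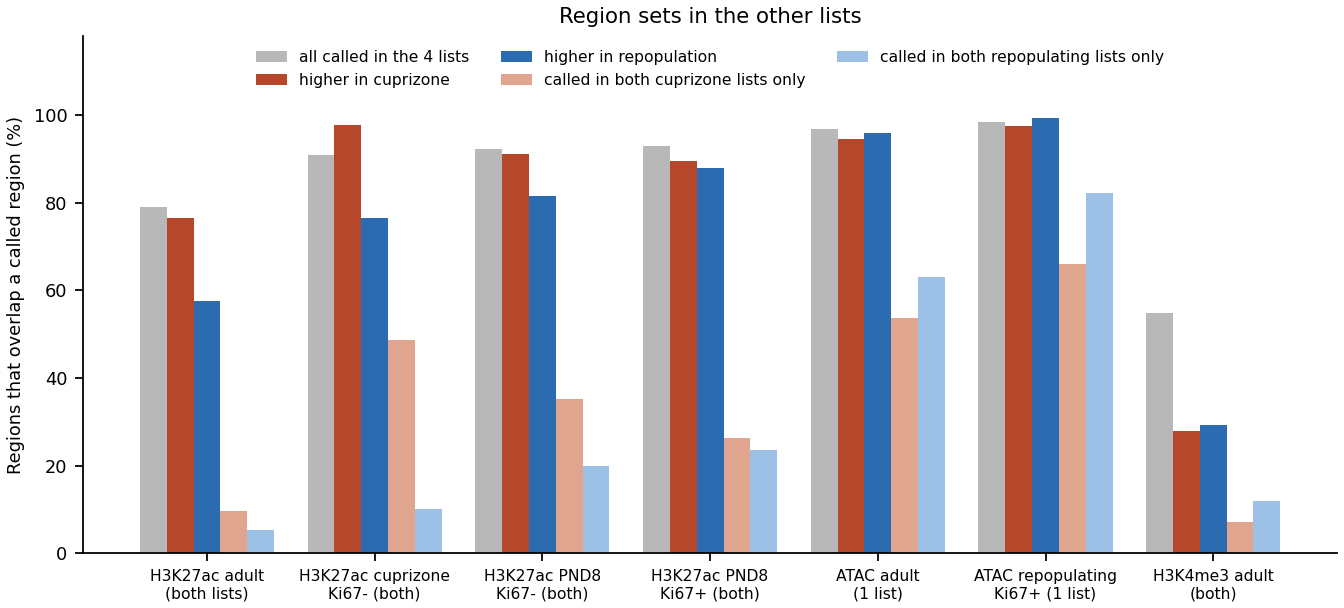
Bars give the percent of each region set that overlaps a called region in the lists named below; 'both' means in each of the 2 lists. Regions higher in repopulation (dark blue) are in both adult H3K27ac lists for 57.6%, against 78.9% of all regions called in the 4 lists (grey), and regions called in both cuprizone lists alone are in both Ki67-negative cuprizone lists for 48.7%, against 63.3% of the whole union (not drawn).

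At 15106 regions called in all 12 libraries, levels were compared as a description. Of the 1163 of them higher in cuprizone, repopulating cells were the lowest of the 6 groups at 647 (55.6%, against 22.2% of all), and cuprizone Ki67-positive cells the highest at 512 (44.0%, against 10.5%). Of the 479 higher in repopulation, repopulating cells were the highest at 364 (76.0%, against 15.6%), and cuprizone Ki67-positive cells the lowest at 126 (26.3%, against 14.8%). These shares follow in part from how the regions were chosen. The Ki67-negative cuprizone cells were nearer to the Ki67-positive cuprizone cells than to repopulating cells at 88.4% and 81.6%, against 69.9% of all. Each of their libraries carries the header code of the Ki67-positive cuprizone library of the same number. Among the replicate 2 libraries of these 3 groups, which share 1 code, the shares were 89.5% and 88.7%, against 68.2% of all. Ki67-negative replicate 1, which has another code, was nearer to cuprizone replicate 2 than to repopulating replicate 2 at 87.9% and 73.5%, against 58.4% of all.

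The levels of single genes differed in pattern. Abcg1 had 494.6 and 890.6 tags in adult cells, 1107.0 and 1265.2 in Ki67-negative cuprizone cells and 387.0 to 462.1 at PND8, so the repopulating values (135.0 and 184.5) were the lowest of the 12. Apoe had 25.8 and 70.4 tags in adult cells, 352.3 and 607.1 in Ki67-negative cuprizone cells and 378.8 to 545.4 at PND8, so adult and repopulating values overlapped. Cst7 reached 112.4 and 224.2 in Ki67-negative cuprizone cells and was at most 23.3 in adult and PND8 libraries that called it. Srebf2 had 58.1 and 83.5 tags in adult cells, 93.9 and 148.4 in Ki67-negative cuprizone cells and 200.9 and 248.6 in Ki67-positive PND8 cells. The 10 sterol promoters that passed had median centred log2 levels of 0.29 and 0.21 in repopulating, 0.08 and 0.01 in Ki67-positive PND8, -1.32 and -0.65 in Ki67-positive cuprizone and -1.14 and -1.33 in adult libraries. Ube2c was called in neither adult library, and had 181.8 and 202.5 tags in Ki67-positive PND8 cells.

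Cuprizone cells outside the comparison were tested next, in a fit whose spread also drew on the 4 libraries that called the regions. The test is thus not wholly separate from those calls. Ki67-negative cuprizone cells were compared with adult cells in a limma fit over all 12 libraries; of 16935 regions, 820 (4.84%) were higher in cuprizone and 488 (2.88%) lower. At 1209 regions higher in dividing cuprizone cells than in repopulating cells, 275 (22.7%) were higher, 17 (1.41%) were lower and the median was 0.35, against -0.08 over the 15537 regions that entered both tests. At 516 regions higher in repopulation, 17 (3.29%) were higher, 38 (7.36%) were lower and the median was -0.15. The counts of 275 and 38 depended on the library: 72 and 7 without Ki67-negative cuprizone replicate 2, 132 and 30 without its replicate 1, 509 and 68 without adult replicate 2, and 225 and 24 without adult replicate 1. Adult replicate 1 had 32.6% of its tags in peaks, the lowest of the 12. Without centring the counts were 362 and 0. The Ki67-negative cuprizone libraries share their header codes with the Ki67-positive cuprizone libraries, and the adult libraries have other codes. At regions called in all 12 lists the counts were 265 of 1163 and 39 of 479. With the code as a term they were 113 (9.72%) and 8 (1.67%), against 260 higher (1.72%) and 119 lower (0.788%) of 15106. Adult replicate 1 is the only library of its code, so adult replicate 2 alone stands for adult cells in that fit. Apoe (2.80, adjusted p = 0.00139), Apoc1 (3.61, adjusted p = 4.76e-05), Gramd1b (2.66, adjusted p = 0.000217), Rtp4 (2.47, adjusted p = 0.000866), Csf1 (1.46, adjusted p = 0.00139), Plin2 (1.34, adjusted p = 0.00278) and Cd63 (0.87, adjusted p = 0.0262) were higher in Ki67-negative cuprizone cells. Abca1 (-0.01, adjusted p = 0.989) and Abcg1 (0.23, adjusted p = 0.36) did not pass.

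RNA gave a readout of the repopulating side. In edgeR's quasi-likelihood test, repopulating Ki67-positive cells against adult cells had 2918 genes higher (23.9%) and 2571 lower (21.0%) of 12230, and 2136 and 1504 without repopulating RNA replicate 2. Among 9094 genes with a tested promoter the shares were 24.9% and 21.2%. Of 185 tested genes whose promoter had more H3K27ac in repopulation, 110 (59.5%) were higher in RNA, 18 (9.73%) were lower and the median log2 fold change was 0.78, against 0.00 over all with a tested promoter. Of 241 whose promoter had more H3K27ac in cuprizone, 51 (21.2%) were higher, 113 (46.9%) were lower and the median was -0.33. For genes nearest to any region of each set, 237 and 106 of 629 (37.7% and 16.9%) and 196 and 337 of 942 (20.8% and 35.8%) were higher and lower. Some counts of lower genes depended on a library: the 18 were 11 without adult RNA replicate 1, and the 106 were 66 and 70 without adult replicates 1 and 2 and 63 without repopulating replicate 2. Adult RNA was the reference, so these values do not compare repopulating with cuprizone cells.

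Cholesterol genes differed between repopulating and adult cells in RNA. Srebf2 rose by 1.52 on the log2 scale (adjusted p = 3.03e-06 by edgeR), and 21 of the 26 synthesis genes were higher and 0 lower. Apoe fell from 149.1 and 173.0 to 52.05 and 66.93 CPM (counts-per-million; -1.44, adjusted p = 9.4e-07), and Abca1 (-1.55, adjusted p = 6.26e-06) and Abcg1 (-1.33, adjusted p = 5.34e-05) fell too. Over the efflux list, 10 of 26 tested genes were higher and 7 lower in repopulating RNA, with a median of 0.17. Of the interferon genes, 38 of 40 were higher in repopulating than in adult RNA, Oasl2 by 3.48 (adjusted p = 3.83e-09), beside 11 promoters with more H3K27ac in cuprizone than in repopulation. Il6, with more H3K27ac in repopulation, had RNA of 8.443 and 7.576 against 10.41 and 8.924 CPM in adult and repopulating cells (0.27, adjusted p = 0.415), and Bcl6 RNA did not pass either (-0.19, adjusted p = 0.324). Cybb (4.13, adjusted p = 3.52e-08), Cfp (3.86, adjusted p = 1.63e-08), Pdlim7 (6.14, adjusted p = 1.17e-06) and St8sia1 (5.48, adjusted p = 7.17e-10) were higher in RNA too. All 46 G2/M genes and 39 of 40 S phase genes were higher in repopulating RNA.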

How the data were processed

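The members and gene lists were chosen with earlier results of these data known. Peaks were called by the authors with HOMER 4.11 on each library separately, as stitched regions of at least 4 times the input in mm10, per the file headers and the submitters' processing notes, which also list Bowtie2 2.3.4.1, STAR 2.7.0f and DESeq2. The deposited signal of a peak is its tag count per 10000000 tags, and the fold (a ratio) over input was identified among the authors' columns by its values. Whole reads were not recovered, so no count model was used on tags.

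The 4 lists were merged at overlaps of at least 1 bp, tags were summed per region, and regions were assigned to the nearest start site of the deposited count table. Log2(tags + 1) of regions called in all 4 lists, centred per library, entered limma 3.58.1 (R 4.3.3) with a trend; p-values were adjusted by Benjamini-Hochberg over all regions, with 0.05 as the threshold. The pseudocount understates folds of weak regions. Deposited RNA counts of 10 libraries (6865903 to 10287876 counts each), which the authors made with HOMER over exons per the file headers, entered 1 edgeR 4.0.16 quasi-likelihood fit with TMM scaling and the filterByExpr filter. Both fits were tested on simulated data with known changes. The limma fit recovered 59 of 100 changes of 2 times and 87 of 100 of 4 times, with 5 false calls. The edgeR fit recovered 73 and 96 of 100, with 11 false calls. DESeq2 1.42.0 was an alternative.

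Named regions were a fixed panel, in each direction the 12 largest differences (1 per nearest gene, groups not overlapping), the 6 strongest regions called in 1 group alone, the loci with most calls, and for each list the members that passed. Other genes named as not passing or not called, and the count of Il6 regions, were chosen after their values were seen. A gene with several promoter regions was given by the one nearest its start. Some listed genes are counted but not reported by name here.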

Additional observations from a re-analysis of the deposited data

How the results depend on the processing

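Counts of regions higher in cuprizone and in repopulation (1586 and 955) were 868 and 597 with a fold of at least 2, 827 and 454 without centring, 921 and 414 with all 12 libraries, 1530 and 583 with all 12 and a term for the header code, 723 and 499 without a trend, and 252 and 138 on peaks of at least 8 times the input. They ran from 996 to 2193 and from 614 to 1484 without 1 library. No label pairs the same-numbered libraries, though the replicate 2 libraries share a header code, and the correlation of their deviations was -0.109. The replicate block gave 1798 and 1121, and the crossed replicate block, chosen after seeing the data, 2235 and 1556. Regions called in 1 group alone (1038 and 1240) were 656 and 193 at 8 times the input, and 1460 to 3215 and 1479 to 3542 without 1 list, since fewer calls are then required.

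Of the lists, interferon (11) had 7 without centring, 3 with all 12 libraries, 0 at 8 times the input and 9 to 11 without 1 library. Disease-associated genes (18) had 11, 11, 9 without a trend, 5 at 8 times the input and 14 to 21. Lipid efflux (5) had 1 at 8 times the input and 5 to 6. Sterol synthesis (10) had 4 without centring, 5 per kb, 6 with all 12, 4 without a trend, 1 at 8 times the input and 6 to 10. S phase (6) had 2, 3, 1, 2 and 1 in that order, and 1 to 9. G2/M (6) had 1 without centring, 2 with all 12, 2 without a trend, 2 with the header code, 0 at 8 times the input, 11 with the crossed block and 4 to 11. At 8 times the input 6328 regions were tested in place of 20227; the other causes were not tested.

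Ki67-negative cuprizone cells against adult cells gave 72 to 509 and 7 to 68 without 1 library, and 0 lower regions without centring, in place of 275 and 38. A term for the header code, an alternative chosen after seeing the data, gave 113 and 8 at regions called in all 12 lists. The RNA counts of 113 and 110 genes kept within 1.5 times in each alternative; the 1930 lower of all genes with a tested promoter were 1253 and 1280 without adult replicates 1 and 2 and 1105 without repopulating replicate 2. Per kb of called length the sign turned at Hmgcs1 (0.04), Fdft1 (0.32), Psap (0.04), Zfp36 (0.25) and a Mgat4a region (0.09). Of 146 named regions called, 89 kept the call without each library and 63 under every alternative that gave a value. With 2 libraries a group, a region that missed the threshold is not shown to be equal.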
